A study of Mus musculus with 12 samples.

Results

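The genes described here are 9 effector genes of cytotoxic lymphocytes: the granzymes Gzma, Gzmb, Gzmc and Gzmk, the perforin gene Prf1, the granule membrane gene Nkg7, the interferon gamma gene Ifng and the death ligand genes Fasl and Tnfsf10. They were chosen by name and matched by symbol to the gene table of the single-cell libraries, where all 9 were found among 32285 genes. Liver cells of 12 neonatal C57BL6/J mice were sequenced one mouse per library by droplet-based 3′ single-cell RNA sequencing, and all libraries carry 1 batch label. In 6 mice, phlebotomy-induced anemia (PIA) was produced by drawing 20 µL of blood per gram of body weight from the facial vein on alternate days from postnatal day 2 to day 10, and 6 control mice received a needle stick without bleeding. Livers of both groups were taken on postnatal day 11, so both groups share 1 age and strain. Mice are named by group and replicate number, and the per-mouse values below each stand for 1 library.

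Cytotoxic lymphocytes kill by a shared mechanism. Perforin forms pores at the target cell, and granzymes, serine proteases stored with it in secretory granules, enter and cleave proteins that set off cell death, while Fas ligand and TRAIL (the product of Tnfsf10) trigger death receptors from outside. Natural killer (NK) cells carry the transcription factor Eomes, whereas type 1 innate lymphoid cells (ILC1), which reside in the liver, lack it, and many gamma delta and innate-like T cells of the liver share the same effector genes.

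Of the 9 genes, Gzma and Gzmk lie on chromosome 13, Gzmb and Gzmc on chromosome 14 within the granzyme cluster, and Prf1 and Ifng on chromosome 10. In GRCm38 with the GENCODE M21 annotation, Gzma spans chr13:113093825-113100981, Gzmb chr14:56258838-56262260, Gzmc chr14:56231441-56234656, and Prf1 chr10:61297833-61304680. Gzmk spans chr13:113171608-113225908, Nkg7 chr7:43437073-43438249, Ifng chr10:118441046-118445892, Fasl chr1:161780689-161788495 and Tnfsf10 chr3:27317028-27342427. The 250 bases before the RefSeq start of Gzma, Gzmb, Gzmc and Prf1 are shown because the comparisons of control and anemic mice below turn on them. The sequences are from RefSeq, build GRCm38.p6, 5′ to 3′ on the strand of the gene, and all 9 genes were matched in that table. Capitals mark matches, on either strand, to the Runx motif TGTGGT, and the T-box motif TCACACC and the STAT motif TTCNNNGAA were searched in the same way.
Gzma, chr13:113100982-113101231, minus strand: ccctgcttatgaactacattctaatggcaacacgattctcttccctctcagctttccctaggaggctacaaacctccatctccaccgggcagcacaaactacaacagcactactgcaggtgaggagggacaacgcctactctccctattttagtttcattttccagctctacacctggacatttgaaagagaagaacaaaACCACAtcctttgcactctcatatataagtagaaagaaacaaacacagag
Gzmb, chr14:56262335-56262584, minus strand: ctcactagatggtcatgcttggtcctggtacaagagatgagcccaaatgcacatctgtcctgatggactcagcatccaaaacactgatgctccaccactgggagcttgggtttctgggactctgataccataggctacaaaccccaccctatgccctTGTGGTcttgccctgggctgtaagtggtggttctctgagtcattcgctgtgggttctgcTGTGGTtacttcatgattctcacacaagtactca
Gzmc, chr14:56234658-56234907, minus strand: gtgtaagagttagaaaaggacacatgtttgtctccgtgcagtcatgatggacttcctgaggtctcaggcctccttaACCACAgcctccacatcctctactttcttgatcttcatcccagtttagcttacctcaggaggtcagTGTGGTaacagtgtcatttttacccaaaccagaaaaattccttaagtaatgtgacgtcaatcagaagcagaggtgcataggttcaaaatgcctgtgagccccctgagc
Prf1, chr10:61297586-61297835, plus strand: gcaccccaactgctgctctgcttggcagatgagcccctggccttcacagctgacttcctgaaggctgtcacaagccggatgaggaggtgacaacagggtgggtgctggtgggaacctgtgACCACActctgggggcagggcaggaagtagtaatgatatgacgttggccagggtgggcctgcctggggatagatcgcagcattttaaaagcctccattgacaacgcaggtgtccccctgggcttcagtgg
The Runx motif, whose family holds regulators of cytotoxic lymphocytes, began 50 bases before the start of Gzma, 93 and 34 bases before Gzmb, 174 and 108 bases before Gzmc, and 130 bases before Prf1. The T-box motif, the motif bound by Eomes and Tbx21, was not matched in these 4 windows. Nkg7 also held a Runx match, 83 bases before its start. The T-box motif was matched 75 bases before Gzmk and 13 bases before Nkg7, and the STAT motif 220 bases before Nkg7 and 249 bases before Ifng. The RefSeq window of Gzmk, chr13:113180966-113181215, lies inside the GENCODE span given above and not before its 5′ end. The windows of 5 of the 9 genes thus held the Runx motif, 2 the T-box motif and 2 the STAT motif, while among all 32851 promoter windows of the same length 14.0%, 3.33% and 7.02% did. These counts are a description of letters and were not tested. No match says only that the letters are not in the window.

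The files held 207537 barcodes, of which 206146 were kept, and a library held between 46252146 and 74545930 unique molecular identifiers (UMIs, each 1 captured RNA molecule). Cell classes were rebuilt by clustering without the 9 genes or the other granzymes and were named from marker genes. NK, ILC1 and T-like cells, cycling cells included, made up 20337 cells, 9.87% of all. They comprised 980 NK-like cells, 5573 ILC1-like cells, 10694 T-like cells and 3090 cycling cells. NK-like cells held Eomes at a median of 201 CPM (UMIs of the gene per 1000000 UMIs of the class in a mouse), against 4.00 in ILC1-like cells, which held Cxcr6 at 198 CPM. Within the T-like cells, 3384 were high in Trdc, the delta chain constant gene of the T cell receptor, 2368 were high in Zbtb16, the factor of innate-like T cells, 1815 carried Cd8b1 and 2193 carried Cd4. Trdc was read last, so the Trdc-high class holds only sub-clusters that did not pass the cuts on Cd8b1, Cd4 or Zbtb16. The main Zbtb16-high sub-cluster also held Trdc, at 426 CPM against 483 in the main Trdc-high one (all mice together, all genes counted). The Trdc-high class is thus not all cells with Trdc. Anemia 2 and anemia 3 stood apart from the other mice in several values below. Anemia 2 gave 241 NK-like, 139 ILC1-like and 4211 monocyte-like cells and anemia 3 gave 180, 464 and 1878, whereas the other 10 mice gave 28 to 127, 262 to 645 and 222 to 451. In ILC1-like cells anemia 3 thus lay among the other mice. Pairs of libraries shared 51 to 121 cell barcodes. Judged by Xist and Y-linked genes, 4 control and 2 anemic mice were female.

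Most UMIs of the effector genes lay in NK, ILC and T cells. For Gzma, Gzmb, Gzmc, Prf1, Nkg7, Ifng and Fasl, between 83.2% and 86.4% of all UMIs were in those cells, which include 861 cells left unnamed among them. Gzmk had 64.7% of its UMIs there and 20.5% in endothelial-like cells, and these were 77.2% and 9.63% without anemia 5, which held 88 of its endothelial-like UMIs. Tnfsf10 was the exception, with 18.3% in NK, ILC and T cells and 48.9% in endothelial-like cells. Between 10.3% and 20.8% of the UMIs of each gene were in other cells that carried no name. Some of these cells were in clusters with markers of NK, ILC and T cells and also of another lineage, such as macrophages, hepatocytes or B cells.

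**Figure D1:**
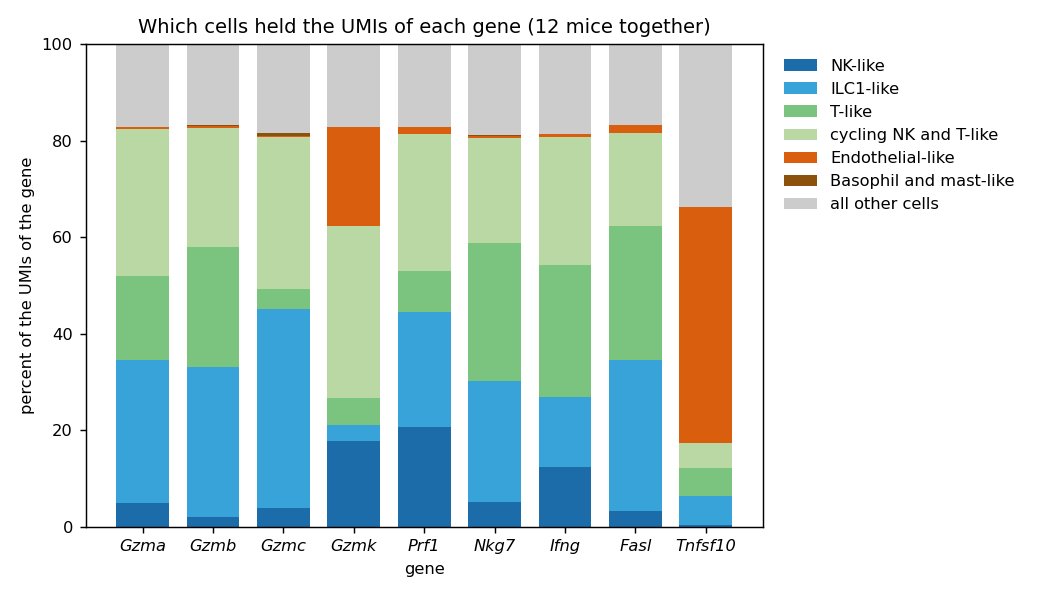
Percent of the UMIs of each gene, over 12 mice together, in NK-like, ILC1-like, T-like and cycling cells, in endothelial-like and in basophil and mast-like cells, and in all other cells. The endothelial-like part is 48.9% for Tnfsf10 and 20.5% for Gzmk, and at most 1.70% for the other 7 genes, and it is 9.63% for Gzmk without anemia 5.

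Gzma, a tryptase-like granzyme, was highest in ILC1-like cells. Its CPM there ranged from 3203 to 6739 over the 12 mice with a median of 4799, followed by cycling ILC1-like cells (median 4460, 10 mice with at least 20 such cells), Trdc-high T-like cells (median 3096), cycling Trdc-high T-like cells (median 2550, 9 mice), NK-like cells (median 2043) and cycling NK-like cells (median 1593, 10 mice). The ranges of neighbouring classes in this order overlapped. CD8 T-like cells (median 44.1) and CD4 T-like cells (median 17.9) were below every NK-like value, the highest CD8 mouse being at 186. Because the classes were made from the same cells, differences between classes are given as levels without a test.

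Gzmb, the granzyme that cleaves after aspartate and activates caspases, was about equal in Trdc-high T-like cells (median 2460, range 1839 to 4992) and ILC1-like cells (median 2422, range 1835 to 3474). Cycling Trdc-high T-like and cycling ILC1-like cells followed with medians of 2145 and 1611. NK-like cells had a median of 125 CPM, and their highest mouse, at 1553, was below the lowest ILC1-like value. Zbtb16-high (median 242) and CD4 T-like cells (median 116) overlapped in range with NK-like cells. In CD8 T-like cells the median was 14.2.

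Gzmc, a granzyme of the same gene cluster as Gzmb, was highest in ILC1-like and cycling ILC1-like cells. The median was 761 CPM in ILC1-like and 772 in cycling ILC1-like cells, against 127 in cycling NK-like, 67.5 in Trdc-high T-like and 20.1 in NK-like cells. In every mouse of ILC1-like cells, 284 to 3654, Gzmc was above its highest value in Trdc-high T-like cells, 206. Of the 31-base words in the last 500 bases of the Gzmc transcripts, 4.04% were also found somewhere in a Gzmb transcript, so reads there could not be told apart. No 31-base word in the last 500 bases of the other 8 genes was found in a transcript of another granzyme or member.

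Gzmk, a granzyme found in some memory T cells and NK cells, had another order. It was highest in cycling NK-like cells (median 68.1 CPM, range 38.4 to 142) and NK-like cells (median 49.5, range 14.6 to 99.3), which overlapped. The median was 2.23 in ILC1-like cells and 2.82 in CD8 T-like cells, and the highest ILC1-like mouse, at 4.54, was below the lowest NK-like mouse. With 696 UMIs in all, Gzmk was the least counted of the 9 genes.

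Prf1 was highest in NK-like cells (median 146 CPM, range 63.3 to 661), followed by ILC1-like cells (median 85.3, range 63.8 to 223), and these ranges overlapped. Cycling NK-like (median 55.5, range 17.4 to 387) and cycling ILC1-like cells (median 41.9) came next. Trdc-high T-like cells had a median of 29.6, below every ILC1-like value, and Zbtb16-high T-like cells one of 6.21. Nkg7, a membrane protein needed for granule release, was found in each of these classes. Its median was 1563 in Trdc-high T-like, 1542 in ILC1-like, 1314 in NK-like, 749 in Zbtb16-high and 473 in CD8 T-like cells. CD4 T-like cells held less of it, with a median of 77.9 and a highest value of 195.

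Ifng, the cytokine that activates macrophages, had another order. Its median was highest in Zbtb16-high T-like cells (265 CPM, range 115 to 701), and the ranges of NK-like (median 141), ILC1-like (142) and Trdc-high T-like cells (156) overlapped with it and each other. In CD8 and CD4 T-like cells the medians were 22.1 and 11.3. Fasl, the ligand of the death receptor Fas, was highest in ILC1-like (median 234), then Trdc-high T-like (191), Zbtb16-high (130.4) and NK-like cells (124), with overlap at each step and cycling cells left out of both orders.

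Tnfsf10 was carried by ILC1-like cells (median 73.2 CPM, range 51.5 to 93.9) and Trdc-high T-like cells (median 57.4), while NK-like cells had a median of 13.3. Endothelial-like cells had a median of 43.5 CPM with a range of 33.5 to 113, which overlapped with the ILC1-like range. Between 221 and 546 endothelial-like cells of each of the 12 mice held a Tnfsf10 UMI.

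**Figure D2:**
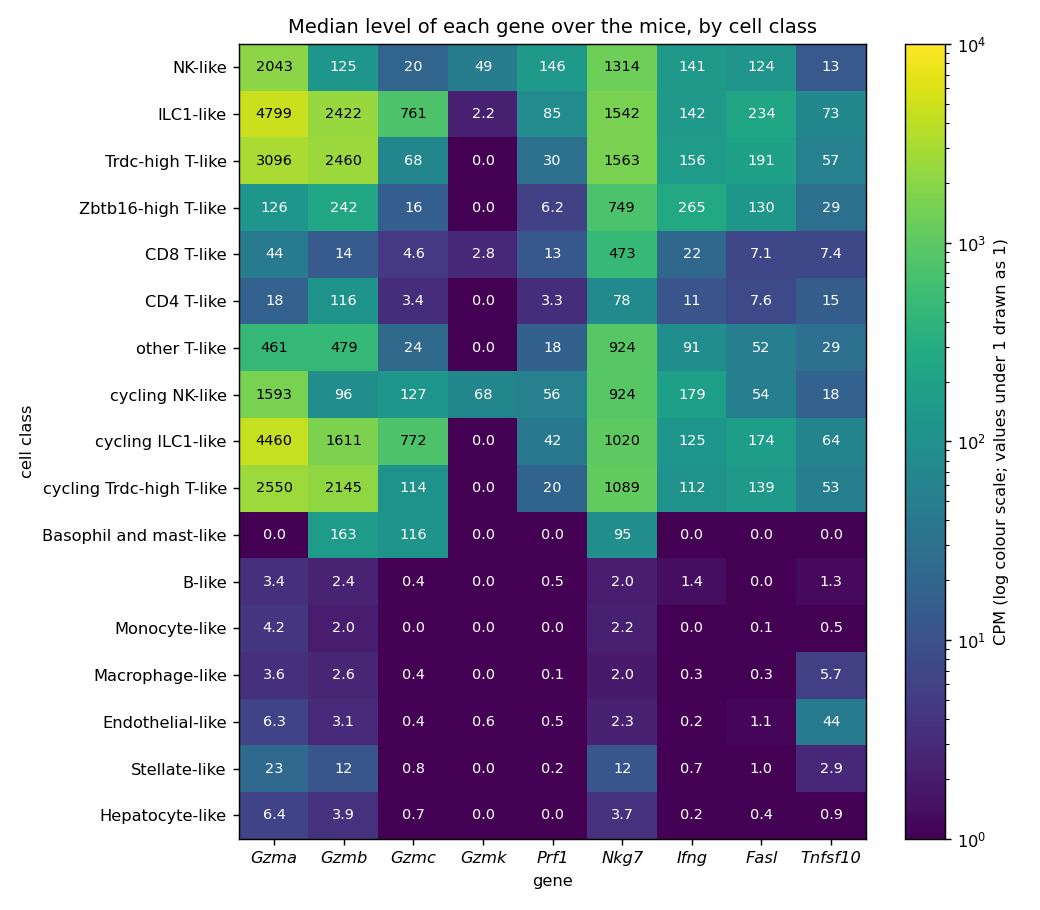
Median CPM over mice with at least 20 cells of a class, for each gene (columns) and class (rows), on a log colour scale. Colours are to be compared within a column. Gzmc and Tnfsf10 are bright in ILC1-like rows, Gzmk in NK-like rows, and Gzmb and Gzmc also appear in basophil and mast-like cells.

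Values also varied within a class. Among the 3 ILC1-like sub-clusters, Gzma was at 6238, 2206 and 6095 CPM and Ifng at 62.5, 148 and 450.1 CPM over all mice together. The sub-cluster with 450.1 CPM of Ifng was led by Hspa1a, Hspa1b, Ccl3 and Ccl4, and 24.8% of its 637 cells came from anemia 5. Among Trdc-high T-like cells, a sub-cluster of 638 cells held Ifng at 559 CPM, against 48.4 in the main one of 2219 cells, with Gzmb at 2396 and 2547.

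Across 26 classes and 14661 genes, the 3 genes whose mean profiles were most like each member were taken. Ncr1, which encodes the NK receptor NKp46, was first for Gzma (Pearson r of log2(CPM + 1) of 0.974), Gzmc (0.937) and Prf1 (0.957). Klrb1c and Klre1 were next for Gzma, Cd200r2 and Gm43647 for Gzmc, and Gm43647 and Klrb1c for Prf1. Gzmb was most like Apol7e (0.959), Gm19585 and Tigit, and Nkg7 was most like Gm19585 (0.982), Apol7e and Txk. Gzmk stood with Gm33460 (0.919), Eomes (0.912) and Klra4, Ifng with Gm19585 (0.978), Klrc2 and Samd3, and Fasl with the chemokine gene Xcl1 (0.988), Klrc2 and Klre1. For Tnfsf10, 4930486L24Rik (0.896), Sp4 and Jak3 came nearest. All of these values are descriptions over class means that share the same libraries. Ncr1 and Eomes were among the genes on which the classes were cut, and Klrb1c, Klre1, Txk and Klra4 were among the naming markers. The likeness of a member to these genes is therefore not independent of how the classes were made.

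The first comparison asked whether PIA changed the effector genes in NK-like cells. Gzmb and Prf1 were higher in anemic than in control mice, as was Gzmc, which had enough UMIs to be tested only through anemic mice. Ifng, Gzma, Nkg7 and Gzmk had positive fold changes that did not pass the test, and Fasl had a log2 fold change of −0.08 ± 0.26. In edgeR's quasi-likelihood test on UMIs summed per mouse, 8 of the 9 genes were tested and 3 were called at an adjusted p under 0.05, where 0.653% of all genes tested were called. An unadjusted p under 0.05 was found for 4 of the 8 and for 13.1% of all genes. The median log2 fold change of the 8 genes was 0.89, against 0.01 over all genes tested. In bulk sums of a class, more RNA per cell and more cells carrying it cannot be told apart.

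Gzmc in NK-like cells was at 0 to 32.3 CPM in control mice (median 12.6), and at 0 to 909 in anemic mice (median 54.1). Anemia 2 (909 CPM, 685 UMIs), anemia 3 (174, 79 UMIs) and anemia 1 (79.0, 8 UMIs) were above all control mice, and the other 3 anemic mice held 0 to 2 UMIs of Gzmc, as the control mice held 0 to 7. The log2 fold change was 4.02 ± 0.77 (SE, n = 6 and 6, edgeR adjusted p 0.00641). The mean of Gzmc in control mice was under the minimum of UMIs per mouse set for testing. Gzmc was therefore tested only through anemic mice, and its call is no separate support for a rise.

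Gzmb in NK-like cells ranged from 50.6 to 295 CPM in control mice (median 96.9) and from 102 to 1553 in anemic mice (median 409). Anemia 2, anemia 5 and anemia 3, at 1553, 698 and 689, were above all control mice, and the other 3 anemic mice lay among them. The log2 fold change of Gzmb was 2.06 ± 0.47 (SE, edgeR adjusted p 0.0309).

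Prf1 ranged from 63.3 to 194 CPM in control and from 124 to 661 in anemic NK-like cells, with medians of 98.5 and 175. All 6 anemic mice were above the control median, and anemia 2 and anemia 3 were above every control mouse. The log2 fold change was 1.42 ± 0.33 (SE, edgeR adjusted p 0.0349). By contrast, the medians of Gzma were nearly equal, 2072 and 2043, although anemia 3 (5258) and anemia 2 (4616) were again highest, and its log2 fold change was 0.49 ± 0.25 (edgeR adjusted p 0.409). Ifng had medians of 138 and 141 with 1256 in anemia 2 alone (log2 fold change 1.28 ± 0.48, edgeR adjusted p 0.237).

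These 3 calls in NK-like cells rested on anemia 2 and anemia 3. With both left out, an alternative chosen after seeing the data, Gzmb had a log2 fold change of 0.72 (edgeR adjusted p 0.841) and Prf1 one of 0.37 (edgeR adjusted p 0.903), while Gzmc had too few UMIs to be tested. Without anemia 2 alone, Gzmc, again tested only through anemic mice, kept a log2 fold change of 2.41 (edgeR adjusted p 0.0336). In that fit Gzmb (1.36, edgeR adjusted p 0.161) and Prf1 (0.93, edgeR adjusted p 0.267) lost the call. Leaving out anemia 3 or any of control 1, 3, 4, 5 and 6 also ended the calls of Gzmb and Prf1. Of the genes not called, Gzma and Ifng turned to −0.20 and −0.61 without both mice (edgeR adjusted p 0.903 and 0.876). Ifng was at 0.0088 without anemia 2 alone, and Gzmk was at −0.11 without anemia 3 alone (edgeR adjusted p 0.999 and 0.963). DESeq2 on the same sums called none of the genes, with 2 of them left without an adjusted p, and the joint limma voom model called none.

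**Figure D3:**
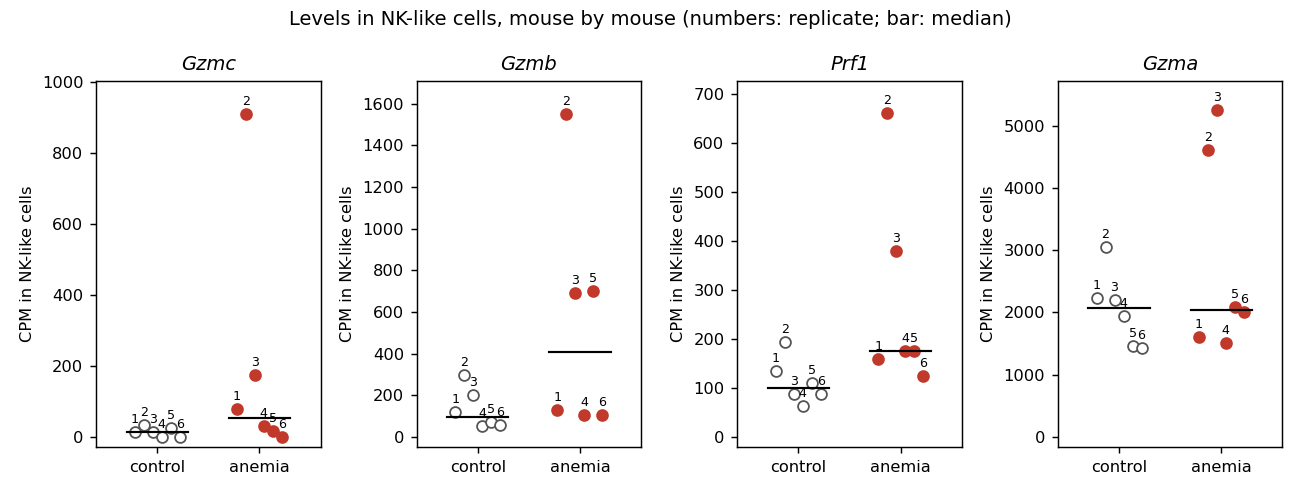
CPM of Gzmc, Gzmb, Prf1 and Gzma in NK-like cells, 1 point per mouse with its replicate number, bars at the group medians. Anemia 2 and anemia 3 are the 2 highest anemic mice for Gzmc, Prf1 and Gzma, and anemia 2 the highest for Gzmb.

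RNA of other cells moved with the groups in these sums. Of 7 hepatocyte genes, all tested, 5 were lower in anemic NK-like cells, and the summed level of the list was 4248 to 6112 CPM in control and 686 to 3359 in anemic mice. The summed erythroid level was 571 to 3302 and 1243 to 5063 CPM, with 0 of 4 tested genes called. The cell-cycle list of 8 genes had a median log2 fold change of 1.27 with Pclaf called (1.43 ± 0.34), and its summed level was 279 to 670 CPM in control and 263 to 1373 in anemic mice. The median number of UMIs per NK-like cell was 1602.5 to 2008 in control and 2006 to 3395 in anemic mice. The part of these differences in the results above was not tested.

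In ILC1-like cells, none of the 8 genes tested was called by edgeR, where 0.987% of all genes were, and 2 had an unadjusted p under 0.05, as 11.2% of all genes had. DESeq2 called 1 and the joint voom model none. Gzma ranged from 3203 to 5304 CPM in control mice (median 3837) and from 4799 to 6739 in anemic mice (median 5284), with a log2 fold change of 0.48 ± 0.13 (SE, edgeR adjusted p 0.0856). All 6 anemic mice were above the control median, and control 2 alone among the control mice reached the anemic range. With DESeq2 the same fold change of Gzma (0.48) had an adjusted p of 0.0247.

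Gzmc in ILC1-like cells ranged from 284 to 879 CPM in control mice (median 556) and from 529 to 3654 in anemic mice (median 1011). Anemia 2 was far above the rest, and anemia 3, 4 and 5 were also above all control mice. The log2 fold change of Gzmc was 1.14 ± 0.34 (edgeR adjusted p 0.121), and with the share of Y-linked UMIs as a covariate it was 1.37 (edgeR adjusted p 0.00194). Without anemia 2 and anemia 3, the log2 fold changes of Gzma and Gzmc were 0.32 and 0.51 (edgeR adjusted p 0.205 and 0.291). The log2 fold changes of Gzmb (0.17 ± 0.13), Prf1 (0.32 ± 0.19), Nkg7 (−0.10 ± 0.10), Ifng (0.15 ± 0.22), Fasl (−0.14 ± 0.14) and Tnfsf10 (0.04 ± 0.14) did not pass the test, with edgeR adjusted p from 0.576 to 0.959. Hepatocyte genes (5 of 7 called, lower) and erythroid genes (4 of 5 called, higher) also moved in ILC1-like cells, with summed levels of 4580 to 6423 against 955 to 3981 CPM and of 954 to 2263 against 2010.2 to 4768 CPM, and their part was not tested.

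The difference between the effects of PIA in NK-like and ILC1-like cells was tested in 1 model with the mouse as a block. None of the genes was called, nor was any of all 5636 genes tested (0.00%), although 397 (7.04%) had an unadjusted p under 0.05. The difference in log2 fold change was 1.74 ± 0.36 for Gzmb (edgeR adjusted p 0.0621), 2.26 ± 0.51 for Gzmc (edgeR adjusted p 0.115) and 0.88 ± 0.26 for Prf1 (edgeR adjusted p 0.341). Leaving out single mice gave 0 to 2 calls among the 9 genes, Gzmb and Gzmc each being called in 4 of 12 such fits, and without anemia 2 and anemia 3 the Gzmb difference was 0.47 (edgeR adjusted p 0.967).

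T-like cells as a whole gave no call among 8 genes tested by edgeR, where 0.534% of all genes were called, and 2 of the 8 had an unadjusted p under 0.05, as 12.4% of all genes had. DESeq2 called none and the voom model 1. The groups did not overlap for Fasl, as for 1.24% of all genes tested in T-like cells (0.797% with anemic mice lower), and they nearly met. It was at 107 to 139 CPM in control mice (median 114) and at 44.3 to 106 in anemic mice (median 88.7), with a log2 fold change of −0.54 ± 0.15 (edgeR adjusted p 0.133) and of −0.50 in the voom model (limma adjusted p 0.0191). Gzma in T-like cells was the gene with a positive fold change and an unadjusted p under 0.05. It was at 686 to 1493 CPM in control mice (median 888) and at 744 to 3138 in anemic mice (median 1285), with 5 of 6 anemic mice above the control median and anemia 3 far above the rest. Its log2 fold change was 0.61 ± 0.27 (edgeR adjusted p 0.360), and 0.24 without anemia 3 (edgeR adjusted p 0.667). The chemokine gene Xcl1, whose profile over classes was most like that of Fasl, fell in T-like cells (−0.57 ± 0.13, edgeR adjusted p 0.0453). The make-up of T-like cells differed as well, with Trdc-high cells being 29.8% to 40.7% of them in control and 9.42% to 36.6% in anemic mice (medians 35.7% and 24.0%, exact two-sided Mann-Whitney test, p 0.0260, added after seeing the data), and its part in the Fasl value was not tested. Without anemia 2 and anemia 3, Fasl in T-like cells had a log2 fold change of −0.43 (edgeR adjusted p 0.0637). Within Trdc-high T-like cells the log2 fold change of Fasl was −0.19 ± 0.13 (edgeR adjusted p 0.697), and within Zbtb16-high cells −0.42 ± 0.20 (edgeR adjusted p 0.531). In the Trdc-high cells 5 of 6 anemic mice were below every control mouse for Fasl, and anemia 5, at 253 CPM, was above all of them. Ifng in T-like cells was at 124 to 179 CPM in control mice and at 73.4 to 214 in anemic mice (−0.35 ± 0.20, edgeR adjusted p 0.499). Anemia 2 was the only anemic mouse above the control median of 143, and the other 5 were below every control mouse. For Nkg7, which was not called, 5 of 6 anemic mice were also below every control mouse. Without anemia 2 and anemia 3, Ifng fell with a log2 fold change of −0.75 (edgeR adjusted p 0.00160).

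The T-like cells were therefore split into their subclasses, a step added after seeing the data. In Trdc-high T-like cells, Gzma was higher in anemic mice. It was at 1772 to 3120 CPM in control mice (median 2099) and at 3071 to 9478 in anemic mice (median 4139). Anemia 2 and anemia 3, at 9478 and 7478, were highest, and 5 of 6 anemic mice were above all control mice, anemia 5 at 3071 being just below control 2. The log2 fold change was 1.21 ± 0.22 (SE, edgeR adjusted p 0.00494), and this was the 1 call among 8 genes tested, where 0.514% of all genes were called. Gzma remained called when any 1 of the 12 mice was left out, with log2 fold changes from 0.98 to 1.33, and without anemia 2 and anemia 3 together (0.71, edgeR adjusted p 0.00367). With a minimum mean of 50 UMIs, which tested fewer genes, its adjusted p was 0.0593. The class held 232 to 536 cells per control mouse and 73 to 476 per anemic mouse, with the fewest in anemia 2. Its smaller median share of T-like cells in anemic mice is given above, and the part of this in the rise of Gzma was not tested.

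Gzmb in Trdc-high T-like cells was at 1839 to 2507 CPM in control mice (median 2046) and at 2418 to 4992 in anemic mice (median 2720). All 6 anemic mice were above the control median and 4 were above all control mice, but the log2 fold change of 0.51 ± 0.16 did not pass the test (edgeR adjusted p 0.206). Prf1 (0.66 ± 0.23, edgeR adjusted p 0.318), Gzmc (0.90 ± 0.34, edgeR adjusted p 0.354) and Ifng (−0.44 ± 0.16, edgeR adjusted p 0.318) also had unadjusted p-values under 0.05, which makes 5 of the 8 genes, where 9.81% of all genes had one. Of the hepatocyte genes, 4 of 7 were lower here (summed level 3953 to 6094 CPM in control, 725 to 3745 in anemic mice), and of 4 tested erythroid genes 1, Hbb-bt, was higher (746 to 1892 against 1436 to 3581 CPM), and their part was not tested.

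The rise of Gzma in Trdc-high T-like cells was larger than its difference in ILC1-like or NK-like cells. In models over the same mice, also added after seeing the data, its log2 fold change was larger there than in ILC1-like cells by 0.65 ± 0.11 (edgeR adjusted p 0.000458), in a test in which 0.0363% of all genes were called. The difference had the same sign and was called with each mouse left out in turn and without anemia 2 and anemia 3 (0.39, edgeR adjusted p 0.0374). The effect in NK-like cells minus that in Trdc-high T-like cells was −0.78 ± 0.15 (edgeR adjusted p 0.0316, 0.0178% of all genes called), which lost the call without any 1 of control 1, 2, 3 and 4 and anemia 1 and 4, the adjusted p then lying between 0.0643 and 0.365, and was −0.91 (edgeR adjusted p 0.00117) without anemia 2 and anemia 3. For Gzmb the difference between Trdc-high T-like and ILC1-like cells was 0.33 ± 0.09 (edgeR adjusted p 0.212).

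**Figure D4:**
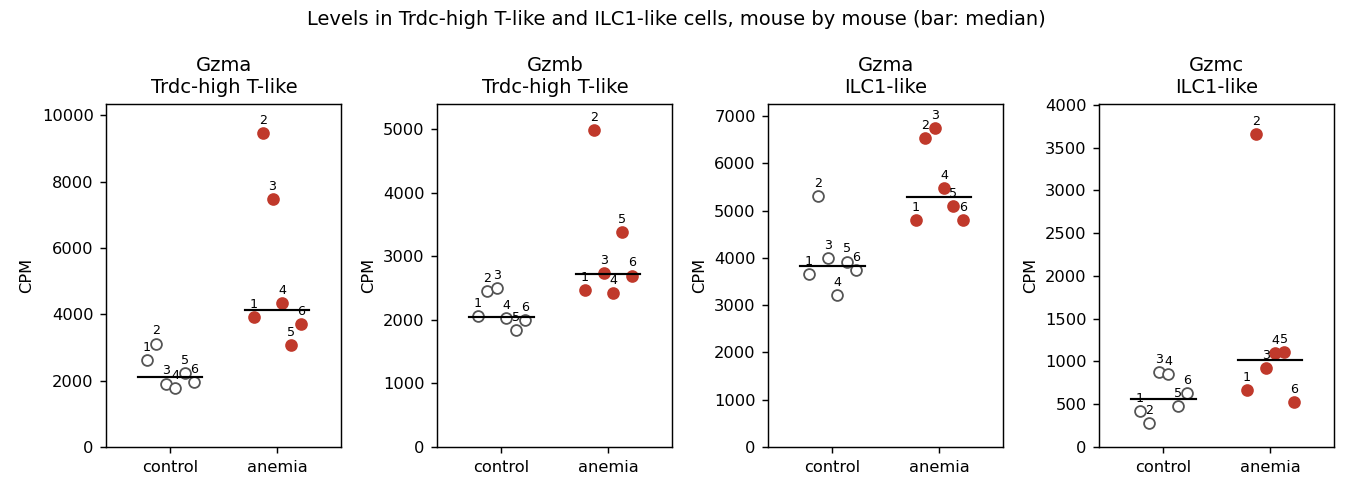
CPM of Gzma and Gzmb in Trdc-high T-like cells and of Gzma and Gzmc in ILC1-like cells, 1 point per mouse with its replicate number, bars at the group medians. For Gzma in Trdc-high T-like cells, 5 of 6 anemic mice lie above all control mice, and for Gzmc in ILC1-like cells anemia 2 stands at 3654.

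The share of cells with at least 1 UMI was read after thinning each cell to 1000 UMIs. Over the 9 genes in NK-like, ILC1-like and T-like cells, 0 of 27 tests were called by the exact permutation test with adjustment, and 3 had an unadjusted p under 0.05 in T-like cells, 1 in ILC1-like cells and 0 in NK-like cells. Those in T-like cells were lower in anemic mice: Nkg7 (−5.44 percentage points), Fasl (−2.21) and Ifng (−2.03). The 1 in ILC1-like cells, Gzma, was higher (6.98 points). Over all genes tested in the same way in a second draw of the thinning, 9.94% had an exact permutation p under 0.05 in T-like, 9.17% in ILC1-like and 6.49% in NK-like cells, and 0.00% were called in each after adjustment over all of them. In Trdc-high T-like cells, added after seeing the data, Gzma was found in 36.3% to 56.0% of cells in control mice (median 43.5%) and in 51.4% to 85.3% in anemic mice (median 63.4%). The mean difference was 21.6 percentage points (exact two-sided permutation p 0.00649, adjusted 0.0292 over the 9 tests of this class). Gzmb was found in 69.3% to 75.2% of control and 76.7% to 86.8% of anemic cells, without overlap between the mice (8.15 points, exact permutation p 0.00216, the smallest the design allows, adjusted 0.0195). Over all 8371 genes tested in the same way in a second draw of the thinning, 7.93% had an exact permutation p under 0.05, 0.645% did not overlap between the groups (0.227% with anemic mice higher) and 0.00% were called after adjustment over all of them. In that draw the differences of Gzma and Gzmb were 19.8 and 9.82 points (exact permutation, adjusted p over all genes 0.380 and 0.336), so both calls rest on adjustment over the 9 tests. Before thinning, the median UMIs per cell were 1831 to 2103 in control and 2234 to 3618 in anemic mice, and the part of depth was not tested beyond the thinning. Without thinning, the differences were 21.1 and 5.94 points. In B-like cells, which should lack both genes, 0.452% of thinned cells held a Gzma UMI and 0.220% a Gzmb UMI. The Gzma call was lost without any 1 of control 1, 3, 4, 5 and 6 and without anemia 2 and anemia 3 (13.4 points, exact permutation, adjusted p 0.0571), where Prf1 gained one (1.35 points, exact permutation, adjusted p 0.0429), as it did without anemia 2 alone (1.34 points, adjusted p 0.0195). The Gzmb call was lost with cells thinned to 500 UMIs (7.51 points, exact permutation, adjusted p 0.234) and kept without any 1 of the 12 mice.

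CD8 T-like cells held little granzyme, and Gzmb was the gene called. Gzmb was at 0 to 20.0 CPM in control mice (0 to 5 UMIs each) and at 6.42 to 181 in anemic mice (1 to 111 UMIs), with medians of 8.77 and 63.6. Its mean in control mice was under the minimum of 5 UMIs per mouse. It was therefore tested only through anemic mice, and its call is no separate support for a rise. Anemia 1, 2, 3 and 5 were above all control mice and anemia 4 and 6 among them. The log2 fold change was 2.91 ± 0.57 (edgeR adjusted p 0.0169), the 1 call among 4 genes tested, where 0.160% of all genes were called. All 4 had a positive fold change with an unadjusted p under 0.05, which 7.19% of all genes had. The 4 include Gzmb, tested only through anemic mice, so this count is no separate support for a rise. The Gzmb call was lost with DESeq2 (2.77, adjusted p 0.324), at the lower cluster resolution, without anemia 2 and anemia 3 (2.00, edgeR adjusted p 0.132) and without any 1 of control 2, 5 and 6. Of the hepatocyte genes 3 of 7 were lower and of the 4 tested erythroid genes Hbb-bs was higher in CD8 T-like cells. Zbtb16-high T-like cells gave 0 calls among 7 genes tested (0.420% of all genes called, 1 of the 7 and 9.46% of all genes with an unadjusted p under 0.05, 0 called with DESeq2), and CD4 T-like cells 0 among 4 (0.237%, 2 of the 4 and 5.93% of all under 0.05, 0 called with DESeq2). Gzma in CD4 T-like cells was at 0 to 29.6 CPM in control mice (0 to 8 UMIs each) and at 0 to 141 in anemic mice (0 to 52 UMIs), with anemia 2, 3, 4 and 5 above all control mice. Its log2 fold change was 2.16 ± 0.64 (edgeR adjusted p 0.306), which was called with no filter on low counts (2.18, edgeR adjusted p 1.21e-08). The fold change of Gzma hardly moved on the same few UMIs, so that call depends on the filter. Most of the 153 Gzma UMIs in CD4 T-like cells were in anemic mice, through which the gene reached the minimum. Its p-values there are therefore no separate support for a rise. In CD4 T-like cells, Ifng was at 0 to 91.4 CPM in control and 0 to 24.4 in anemic mice (−2.12 ± 0.67, edgeR adjusted p 0.358). No anemic mouse was below all control mice. Without anemia 2 and anemia 3 its log2 fold change was −3.41 (edgeR adjusted p 0.0455). With 72 Ifng UMIs in this class and lower values in anemic mice, the gene reached the minimum through control mice. The p-values of Ifng there, this call included, are therefore no separate support for a fall.

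Cycling NK, ILC1 and T-like cells as 1 class gave 0 calls in edgeR among 9 genes tested, where 0.580% of all genes were called, with 4 unadjusted p-values under 0.05 (7.74% of all genes) and 0 calls with DESeq2. Prf1 was at 19.4 to 48.7 CPM in control and 11.5 to 176 in anemic mice (1.46 ± 0.43, edgeR adjusted p 0.200), and Gzmc at 103 to 381 and 227 to 886 (0.97 ± 0.29, edgeR adjusted p 0.213). Without anemia 2 and anemia 3 the values were −0.33 and 0.43 (edgeR adjusted p 0.902 and 0.744), and anemia 2 alone gave 40.0% of the cycling NK-like cells. NK, ILC1 and T-like cells summed together gave 0 calls among 9 genes (0.416% of all genes called), with 3 unadjusted p-values under 0.05 (11.9% of all genes) and 0 calls with DESeq2. Gzma had the smallest p there (0.60 ± 0.20, edgeR adjusted p 0.241), and without anemia 2 and anemia 3 its log2 fold change was 0.26 (edgeR adjusted p 0.361) while Ifng went from 0.25 to −0.49 (edgeR adjusted p 0.0489).

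**Figure D5:**
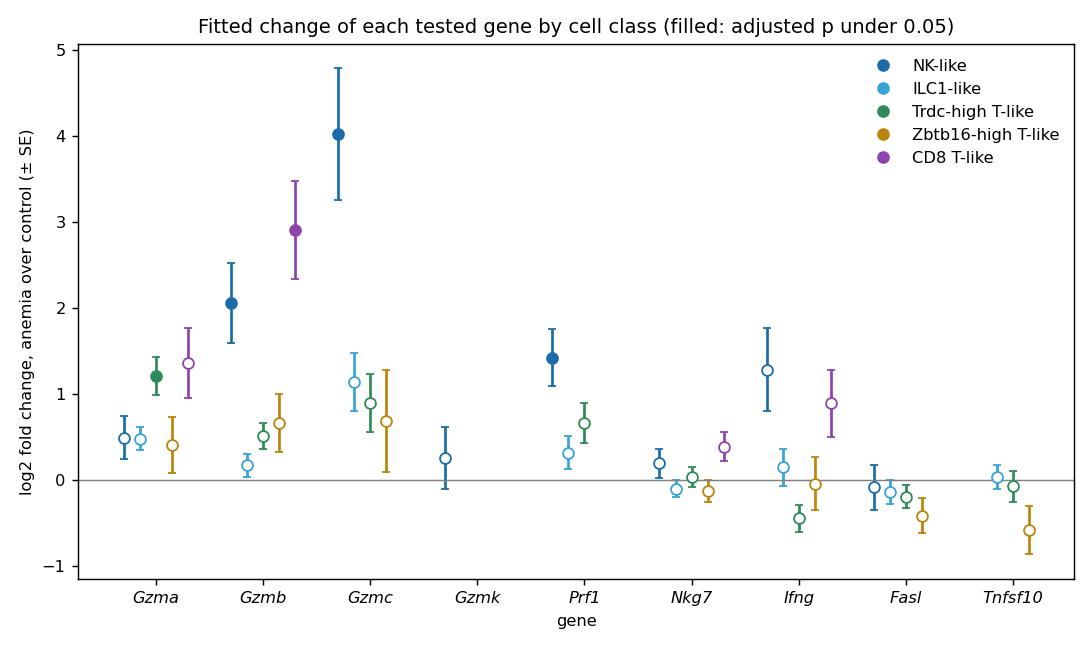
Log2 fold change, anemia over control, with its standard error, of each tested gene in 5 cell classes, filled where the edgeR adjusted p was under 0.05. Gzmb, Gzmc and Prf1 are filled in NK-like, Gzma in Trdc-high T-like and Gzmb in CD8 T-like cells, and Nkg7 and Fasl lie near 0 in most classes.

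Outside lymphocytes, endothelial-like cells gave 1 call among 7 genes tested, where 18.6% of all genes were called. An unadjusted p under 0.05 was found for 1 of the 7 and for 33.7% of all genes, and DESeq2 called 0, with 1 left without an adjusted p. Gzmk was at 0.0861 to 0.988 CPM in control mice and at 0.522 to 9.38 in anemic mice (log2 fold change 2.83 ± 0.87, edgeR adjusted p 0.0355). This rested on anemia 5, with 88 Gzmk UMIs in 38 cells, while the other 11 mice had 1 to 11 UMIs each, and without anemia 5 the log2 fold change was 1.24 (edgeR adjusted p 0.125). The mean of Gzmk in control mice was under the minimum of 5 UMIs per mouse. Gzmk was therefore tested only through anemic mice, and its call is no separate support for a rise. Leaving out any 1 of control 1, 3, 4, 5 and 6 also ended the call. Tnfsf10 in endothelial-like cells was at 39.4 to 69.5 CPM in control and 33.5 to 113 in anemic mice (0.41 ± 0.27, edgeR adjusted p 0.304). Its log2 fold change was 0.07 without anemia 2 (edgeR adjusted p 0.841) and −0.09 without anemia 2 and anemia 3 (edgeR adjusted p 0.773). In monocyte-like cells 0 of 4 tested genes were called (1.19% of all genes), with 0 unadjusted p-values under 0.05 (15.9% of all genes) and 0 calls with DESeq2, and in macrophage-like cells 0 of 5 (2.31%), with 1 under 0.05 (20.9% of all genes) and 0 called with DESeq2.

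In all kept cells together, where cell number and level per cell act together, 0 of 9 genes were called by edgeR (6.92% of all genes), 2 had an unadjusted p under 0.05, where 23.5% of all genes did, and DESeq2 called 0. Gzmc (1.17 ± 0.50) and Gzmk (1.34 ± 0.59) had the lowest p-values (edgeR adjusted p 0.177 and 0.191), and without anemia 2 and anemia 3 the fold changes were 0.07 and 0.66 (edgeR adjusted p 0.894 and 0.509) and that of Ifng went from 0.62 to −0.89 (edgeR adjusted p 0.0497). ILC1-like cells, the main carriers of Gzmc, were fewer: they were 3.21% to 4.10% of kept cells without erythroid-like cells in control mice (median 3.73%) and 0.858% to 3.61% in anemic mice (median 2.61%, exact two-sided Mann-Whitney test, p 0.00866, adjusted 0.0260 over 3 classes). The call was lost without any 1 of 9 mice, among them anemia 2 (difference in means −0.787 percentage points against −1.13 with all mice, exact test, adjusted p 0.0519). NK-like (exact p 0.589) and T-like cells (exact p 0.132) did not pass the test.

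The other genes of the cytotoxic pathway were read against the share of all genes called by edgeR, 0.653% in NK-like, 0.987% in ILC1-like, 0.514% in Trdc-high T-like and 0.534% in T-like cells, so that lists of this size would hold about 0 calls at that share. Of 13 genes of granule contents, maturation and release, among them Srgn, Ctsc, Unc13d and Rab27a, 12 were tested in NK-like, 13 in ILC1-like and 13 in Trdc-high T-like cells and 0 were called in each, with median log2 fold changes of −0.0045, 0.0024 and 0.011 against 0.0089, 0.017 and 0.019 over all genes tested. The granzyme inhibitors (2 or 3 of 4 tested), the receptors and caspases downstream of the ligands (4 to 6 of 8 tested), the transcription factors such as Eomes and Tbx21 (8 or 9 of 10 tested) and the cytokine receptors (6 to 8 of 8 tested) gave 0 calls in those 3 classes. Other secreted effectors gave 0 calls there, and Xcl1 was the 1 called of 8 in T-like cells. Of the interferon response list, 4 of 12 genes were tested in NK-like cells and 0 called, with a median log2 fold change of 0.00091. The other granzymes Gzmd, Gzme, Gzmf, Gzmg, Gzmm and Gzmn had too few UMIs to be tested in NK-like, ILC1-like and Trdc-high T-like cells.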

How the data were processed

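Single-cell libraries of 12 livers were deposited by the authors as raw UMI counts per gene and barcode, made with Cell Ranger (version 7.0.0 in the file headers) on mm10. The 9 genes and all lists were chosen with earlier results of these data known. Barcodes outside 500 to 50000 UMIs, or with a mitochondrial share above 50%, were dropped. Counts were scaled and log-transformed, and 2000 variable genes without granzymes or the 9 genes gave 20 principal components and clusters (igraph 0.11.9, resolution 2, then 1.5 within NK, ILC and T cells). Listed markers named the classes, with cuts on Cd3e, Ncr1, Eomes, Cd8b1, Cd4, Trdc and Zbtb16 set after sub-clusters were seen. Doublet scores called 11.3% to 17.0% of barcodes per library (2.75% in NK, ILC1 and T-like cells), which were kept. CPM left out mitochondrial and ribosomal protein genes, used no TMM factors, and was given for mice with at least 20 cells. A mouse was 1 replicate. Counts per mouse and class were tested with edgeR 4.0.16 (quasi-likelihood, TMM, mean of at least 5 UMIs per mouse, Benjamini-Hochberg over all genes tested). Standard errors were derived from its F statistic. Interactions used the mouse as a block. DESeq2 1.42.0, limma 3.58.1 and other settings were alternatives. Every member and listed gene was eligible to be named. The scripts were tested on simulated data.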

Additional observations from a re-analysis of the deposited data

Results flagged for a closer look

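Of 104 groups of 6 mice examined, 18 held a value whose gap to its neighbour was above the 95% critical value of Dixon's test. Chance gives about 1 in 20 in independent, normally distributed groups. The groups here share mice and nested classes, so the count cannot be read against that rate. Anemia 2 gave 9 of them: Gzmc at 909 CPM and Ifng at 1256 CPM in NK-like cells, Gzmc at 3654 CPM and Ifng at 352 CPM in ILC1-like cells, Ifng at 214 CPM in T-like cells, Gzmc at 886 CPM and Ifng at 393 CPM in cycling cells, Gzmb at 4992 CPM in Trdc-high T-like cells, and Gzmc at 2.20 CPM in endothelial-like cells. Anemia 3 stood out for Gzma in T-like cells at 3138 CPM.

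Anemia 5 stood out for Nkg7 at 1942 CPM and Fasl at 253 CPM in Trdc-high T-like cells and for Gzmk at 9.38 CPM in endothelial-like cells. Among the control mice, control 2 stood out for Gzmk at 24.7 CPM and Prf1 at 48.7 CPM in cycling cells and for Gzmk at 0.988 CPM and Tnfsf10 at 69.5 CPM in endothelial-like cells. Control 3 stood out for Nkg7 at 665 CPM in CD8 T-like cells.

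The effect of PIA on Gzma differed between cell classes in the test of the difference itself, by a log2 fold change of 0.65 for Trdc-high T-like minus ILC1-like cells and of −0.78 for NK-like minus Trdc-high T-like cells. Both comparisons were added after seeing the data, and the second lost its call in 6 of the fits with 1 mouse left out. For NK-like minus ILC1-like cells the difference of Gzma was −0.09 ± 0.17 (edgeR adjusted p 0.949).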

How the results depend on the processing

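The alternatives were DESeq2, a joint limma voom model (NK-like, ILC1-like and T-like cells), no TMM factors, no filter, a mean of at least 50 UMIs, the replicate number as a block, the Y-linked share as a covariate, a stricter mitochondrial limit, doublets left out, members kept among the variable genes, a lower resolution, each mouse left out, and, chosen after seeing the data, anemia 2 and anemia 3 left out and detection adjusted over all genes. Counts of the 9 genes called moved as follows, and the cause was not tested. In NK-like cells 3 genes became 0 with DESeq2, with voom, at a mean of 50 and without anemia 2 and anemia 3, 2 with the members kept among the variable genes, where Prf1 lost its call (1.35, edgeR adjusted p 0.0581), and 4 with no filter, where Ifng gained one (1.38, edgeR adjusted p 2.67e-07). In ILC1-like cells 0 became 1 with DESeq2, no filter, the replicate block and the Y-linked covariate. In T-like cells 0 became 1 with voom, no filter, the Y-linked covariate and without anemia 2 and anemia 3. In cycling cells 0 became 3 with no filter and 1 with the replicate block. In NK, ILC1 and T-like cells together 0 became 1 with the Y-linked covariate and without anemia 2 and anemia 3, and in all kept cells 1 without them. In endothelial-like cells 1 became 0 with DESeq2, at a mean of 50 and with the Y-linked covariate. In Trdc-high T-like cells 1 became 2 with no filter and at the lower resolution and 0 at a mean of 50. In CD8 T-like cells 1 became 2 with no filter and 0 with DESeq2, at a mean of 50, at the lower resolution and without anemia 2 and anemia 3. In Zbtb16-high cells 0 became 1 with no filter, and in CD4 T-like cells 2 with no filter and without anemia 2 and anemia 3. Detection calls in Trdc-high T-like cells went from 2 to 1 at 500 UMIs and to 0 with adjustment over all genes, and stayed at 2 without anemia 2 and anemia 3, where Gzma lost and Prf1 gained one, and the called class share from 1 to 0 without anemia 2 and anemia 3. Left out singly, mice gave 1 to 3 calls in NK-like, 1 to 1 in Trdc-high, 0 to 1 in ILC1-like, T-like, endothelial-like and CD8 T-like cells, 0 to 2, 1 to 2 and 0 to 3 for the differences NK-like minus ILC1-like, Trdc-high minus ILC1-like and NK-like minus Trdc-high, 1 to 3 for Trdc-high detection, 0 to 1 for class shares and 0 to 0 elsewhere.

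Without anemia 2 and anemia 3, 3 log2 fold changes reversed with a call: Ifng in NK, ILC1 and T-like cells together (−0.49, edgeR adjusted p 0.0489) and in all kept cells (−0.89, edgeR adjusted p 0.0497), and Gzmb in CD4 T-like cells (−1.005, edgeR adjusted p 0.0466). Of the other log2 fold changes of single genes, 2178 kept direction and side, 101 moved without a call, 35 gained a call and 45 lost one. Of the shares of cells with a UMI, 37 kept direction and side, 2 gained a call and 9 lost one, and of the class shares 93 kept both, 9 moved without a call and 10 lost one.

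Same-numbered mice correlated above 0.1 in 3 of 6 pairs in ILC1-like, 4 of 6 in T-like and 3 of 6 in all kept cells, so not every pair passed 0.1 and the mice were treated as unpaired. The pair with replicate number 4 reached 0.44, 0.56 and 0.47 in these classes, and this limit cannot exclude that some mice are paired. With the replicate block, Gzma in ILC1-like cells had an adjusted p of 0.0210 and Gzmc in cycling cells one of 0.0360 (edgeR), and other calls among the 9 genes did not change. Over the alternatives, the genes called among all genes ran from 0 to 132 in NK-like cells (37 as reported), 26 to 263 in ILC1-like (91), 5 to 272 in T-like (59), 7 to 197 in cycling (58), 10 to 176 together (53), 65 to 468 in monocyte-like (129), 217 to 881 in macrophage-like (329), 2388 to 3652 in endothelial-like (3111), 967 to 5016 in all kept (1467), 1 to 135 in Trdc-high (43), 1 to 174 in Zbtb16-high (31), 2 to 68 in CD8 (11) and 7 to 86 in CD4 T-like cells (17). NK-like sums rest on 28 to 241 cells per mouse, and Tnfsf10 had too few UMIs there to be tested.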

Other observations

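Granzyme UMIs were also found in basophil and mast-like cells, 584 cells in all, where Gzmb had a median of 163 CPM (range 47.5 to 452) and Gzmc one of 116 CPM (range 13.9 to 185) over the mice with at least 20 such cells. Gzma UMIs were found in these cells in 5 of the 12 mice and Gzmk and Fasl UMIs in 0. Within CD4 T-like cells, Gzmb was at 371 CPM in the sub-cluster of 568 cells whose leading genes include Tnfrsf4, Ctla4, Areg and Foxp3, a factor of regulatory T cells, and at 29.0 CPM in the sub-cluster of 1625 cells led by St8sia6 and Ccr7. A sub-cluster of 31 unnamed cells led by the interferon response genes Ifit1, Cxcl10, Ifit3 and Rsad2 held Gzma at 3559 CPM, Gzmb at 2919 CPM and Ifng at 406 CPM.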
